A study of Mus musculus with 18 samples.

Results

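The effect of paraquat was examined in the cerebellum of mice carrying a human apolipoprotein D (ApoD) transgene. The comparison set the 3 arrays of transgenic mice injected with paraquat against the 3 arrays of transgenic mice injected with saline, as named in the sample titles. These are 6 of the 18 arrays of the study, and the other 12 held wild-type and ApoD knock-out mice under the same 2 treatments. All mice were adult males of 80 ± 5 days. Each received 1 intraperitoneal injection of 200 µl of saline, with paraquat at 30 mg/kg or without it, and the cerebellum was taken 6 h later. Every group began with 9 mice, whose RNA was combined in equal amounts into 3 pools of 3 mice, so that each array reads a pool and errors given here describe how pools vary. Per the labels the transgenic is a gain-of-function line with ApoD over-expressed in neurons on top of the endogenous mouse gene. Its promoter, its strain and the number of founder lines are not given in the sources used here.

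Paraquat is a redox cycler: it accepts an electron from cellular reductases and passes it to oxygen, which forms superoxide, and an injected dose is also an acute stress to the animal. In mammals such stress releases glucocorticoids, which enter the brain, bind the glucocorticoid receptor and switch on a well-known set of target genes within hours, among them Fkbp5, Sgk1, Tsc22d3 and the metallothioneins. ApoD is a secreted lipocalin that binds arachidonic acid and other lipids and is known for protecting brain membranes from oxidation. The choroid plexus, which produces cerebrospinal fluid, lies in the fourth ventricle against the cerebellum and carries its own strongly expressed genes.

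Values are on the log2 scale of the deposited RMA table, in which a difference of 1 is a doubling. Genes were represented by their brightest probe set, 8320 passed a filter on dim signals, and the fits are limma's, two-sided, with Benjamini-Hochberg adjustment over all genes tested and a threshold of 0.05. The defining markers of cerebellar neurons were bright on all 6 transgenic arrays, with Gabra6 of granule neurons at 12.12 to 12.48 and Pcp2 of Purkinje neurons at 13.24 to 13.42. The mouse Apod probe set gave lower readings on every transgenic array than on the wild-type arrays of the same treatment. It read 12.25, 12.28 and 12.35 on the transgenic saline arrays and 12.13, 12.29 and 12.32 on the transgenic paraquat arrays. Wild-type arrays read 12.38 to 12.54 under saline and 12.53 to 12.76 under paraquat. The transgenic differed from wild-type by -0.17 under saline (limma's adjusted p = 0.48) and by -0.41 under paraquat (limma's adjusted p = 0.04). It is not known from the files whether this probe set can read the human transcript. The transgenic arrays held technical signs that went with the replicate number. The dap spike-in read 12.08 and 12.45 on the saline and paraquat arrays of replicate 1 and 10.55 to 10.84 on the other 4, and the 18S ribosomal control read 6.15 to 7.52 on transgenic arrays against 7.35 to 8.42 on all others. The actin control's 3′ probe set exceeded its opposite-end one by 0.49 and 0.47 on the saline and paraquat arrays of replicate 3. In wild-type and knock-out it did so by 0.70 to 0.98, and on the other 4 transgenic arrays by 0.73 to 0.93. For the pyruvate carboxylase control these differences were 1.82 and 1.95, against 2.25 to 3.16 in wild-type and knock-out. The part of these signs in the values of replicate 3 was not tested. The median SD of a gene within a group was 0.157 in transgenic saline and 0.141 in transgenic paraquat, larger than 0.073 and 0.097 in wild-type, while the knock-out groups had 0.065 and 0.236. Knock-out paraquat replicate 2 stood apart from all other arrays, with a mean correlation with the others of 0.971, against 0.986 to 0.993, and all 18 arrays share the estimate of the spread. Without it limma called 353 genes in wild-type and 151 in the knock-out, against 166 and 188 with it.

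No gene passed the test for paraquat against saline in the transgenic cerebellum. Limma called 0 of 8320 genes, which is 0%, where it called 166 (2%) in wild-type and 188 (2.26%) in the knock-out. At an unadjusted p under 0.05 there were 118 genes (1.42%), of which 56 (0.673%) were higher and 62 (0.745%) lower under paraquat. All 3 paraquat arrays lay above all 3 saline arrays for 98 genes (1.18%) and below them for 209 (2.51%). The median log2 fold change over all genes was -0.03, and 95% confidence intervals had a median half-width of 0.27, so that shifts smaller than this were not detectable for a typical gene. These intervals are not adjusted for the number of genes, and the adjusted test could miss far larger shifts. Plin4, with the largest value at 1.34, did not pass it. The 3 replicate numbers met the rule used here for pairs in the transgenic, though arrays of replicates 1 and 2 correlated as much when crossed. Results that rest on this pairing are therefore tentative. Limma's fit with the replicate number as a block within genotype called 1 gene (0.012%), Folr1 (adjusted p = 0.041). That fit also pairs wild-type and knock-out arrays, which did not meet the rule, and a block in the transgenic only, added after the values were seen, likewise called Folr1 alone (adjusted p = 0.038). The 6 transgenic arrays fitted alone gave 0 calls, and 12 with the replicate block, which left 2 residual degrees of freedom. Those 12 were Plin4, Xdh, Cdkn1a, Sgk3, Zbtb16, Folr1, Sostdc1, Kl, Ttr, Ecrg4, Car12 and Cap1.

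Among the genes with the largest values in the transgenic were stress and metabolic genes that paraquat raised in the other genotypes, and most of these read high on 2 of the 3 paraquat arrays. Plin4, which coats lipid droplets, read 5.91, 6.79 and 6.69 on the saline arrays of replicates 1, 2 and 3 and 8.80, 8.36 and 6.25 on the paraquat arrays. Paraquat replicates 1 and 2 stood above every saline array, and replicate 3 stood inside the saline range. The log2 fold change was 1.34 (SE 0.42, 95% interval 0.46 to 2.22, n = 3 and 3 pools, unadjusted p = 0.0047 in limma's fit, adjusted p = 1), against 3.16 in wild-type and 3.20 in the knock-out. Leaving out paraquat replicate 3, the lowest of its group, could only raise this value, and gave 2.11 with limma's adjusted p of 0.0015. With any other single transgenic array left out no gene was called, and the value of Plin4 fell as low as 0.84.

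Cdkn1a, the gene of the p21 inhibitor of cyclin-dependent kinases, read 8.99, 9.0 and 8.59 on the saline arrays and 10.24, 9.68 and 8.88 on the paraquat arrays. Its paraquat pool of replicate 3 was again the lowest and lay below 2 of the saline pools. The log2 fold change was 0.74 (SE 0.22, limma's adjusted p = 1), where wild-type gave 2.59 and the knock-out 2.35. Fkbp5, a co-chaperone that feeds back on the glucocorticoid receptor, read 7.74, 8.27 and 7.91 under saline and 9.19, 8.93 and 7.86 under paraquat. Here too replicates 1 and 2 cleared the saline range and replicate 3 did not. The resulting log2 fold change of Fkbp5 was 0.69 (SE 0.24, limma's adjusted p = 1), against 2.5 in wild-type and 2.42 in the knock-out. Without paraquat replicate 3, the lowest of its group for both, limma gave 1.10 for Cdkn1a (adjusted p = 0.0093) and 1.09 for Fkbp5 (adjusted p = 0.014). With other single transgenic arrays left out the values fell as low as 0.42 and 0.43, and neither gene was called.

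Sgk3, a kinase of the serum and glucocorticoid regulated family, was the gene with the smallest p. It read 7.64, 7.35 and 7.35 under saline and 8.60, 8.12 and 7.65 under paraquat. All 3 paraquat pools were above all 3 saline pools, although that of replicate 3, at 7.65, barely cleared the highest saline pool. The log2 fold change of Sgk3 was 0.67 (SE 0.17, unadjusted p = 0.00071, limma's adjusted p = 1), and wild-type gave 2.38. Xdh, xanthine dehydrogenase, whose oxidase form makes superoxide, read 6.25, 6.19 and 6.99 under saline and 7.99, 7.59 and 6.45 under paraquat. Pair 3 of Xdh ran the other way, by -0.54, while pairs 1 and 2 differed by 1.74 and 1.41. Its mean log2 fold change was 0.87 (SE 0.28, limma's adjusted p = 1), which is 1.83-fold, and wild-type and knock-out gave 1.57 and 1.25. Without paraquat replicate 3, again the lowest of its group, limma gave 0.91 for Sgk3 and 1.31 for Xdh, both at an adjusted p of 0.014. With other single transgenic arrays left out they fell as low as 0.44 and 0.55, and neither was called.

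**Figure D1:**
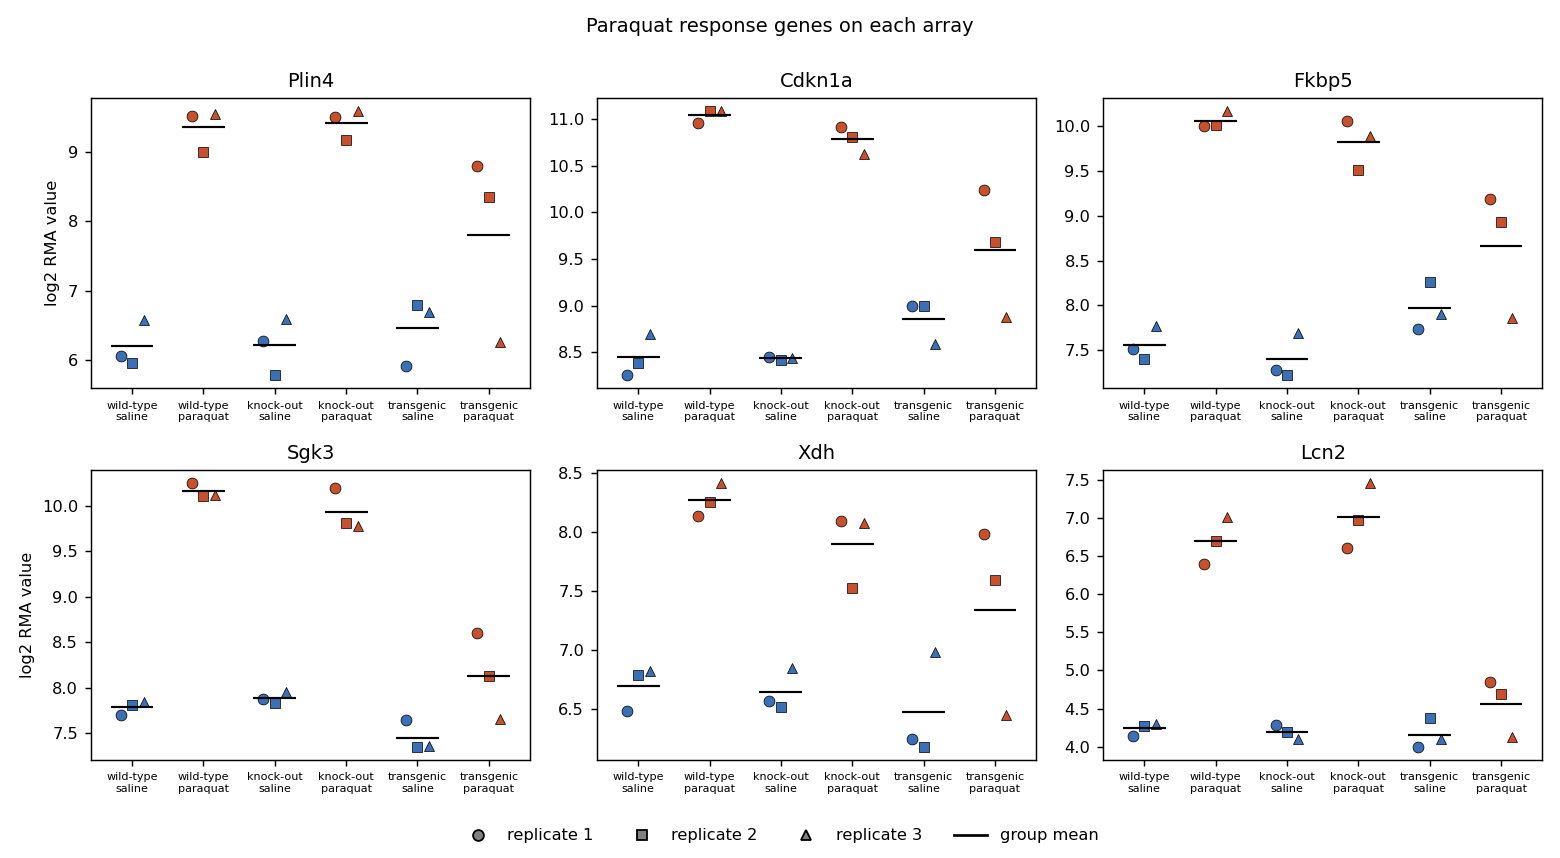
Log2 RMA values of 6 genes on each of the 18 arrays (vertical axis), by genotype and treatment (horizontal axis, blue saline, red paraquat), with the replicate number as symbol and the group mean as a line. In the transgenic the paraquat array of replicate 3 lies near the saline arrays for all 6 genes, at 6.25 for Plin4, while that of replicate 1 reaches 8.80.

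Lcn2, a siderophore-binding lipocalin and acute-phase gene, gave a small value where the other genotypes gave one of their largest. It read 4.0, 4.37 and 4.09 under saline and 4.85, 4.69 and 4.13 under paraquat in the transgenic, and 6.39 to 7.01 in wild-type under paraquat. Paraquat replicate 3 of the transgenic lay within its saline range, and no transgenic array reached the wild-type paraquat values. The log2 fold change was 0.40 (SE 0.20, limma's adjusted p = 1), against 2.46 and 2.83. Slc25a13, a mitochondrial aspartate and glutamate carrier, behaved more evenly. It read 5.53, 5.53 and 5.78 under saline and 6.22, 6.15 and 6.11 under paraquat. All 3 paraquat pools of Slc25a13 were higher than all saline pools, and the log2 fold change was 0.55 (SE 0.14, limma's adjusted p = 1), against 1.12 in wild-type. On every transgenic array, however, Slc25a13 was below the level of the filter on dim signals. It was tested only through wild-type and knock-out paraquat arrays, on which it is high.

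Genes called in both wild-type and the knock-out were followed into the transgenic. There were 89 with the same direction in both (1.07% of the genes tested), 60 higher and 29 lower. Their values in those 2 genotypes chose them, with a spread estimated over all 18 arrays, the transgenic ones included. In the transgenic 57 of the 60 had a positive log2 fold change and 28 of the 29 a negative one, where 38.4% of all genes were positive. The median of the 60 was 0.21, against 0.93 in wild-type and 0.82 in the knock-out, and that of the 29 was -0.23, against -0.67 and -0.66. At an unadjusted p under 0.05 there were 13 of the 60 and 6 of the 29, and 0 were called. The 13 became 3 without paraquat replicate 1, 8 without paraquat replicate 2 or saline replicate 3 and 38 without paraquat replicate 3, and the 6 became 3 without saline replicate 1 and 11 without saline or paraquat replicate 3. All 89 values were smaller in size in the transgenic than in either other genotype. The transgenic value was a median 23.1% of the mean of the other 2 for the 60 genes and 30.7% for the 29. Leaving out single transgenic arrays moved the share for the 60 from 9.81% (without paraquat replicate 1, median 0.08) to 37.2% (without paraquat replicate 3, median 0.39), and that for the 29 from 22.9% to 35.2%. Of the 60, 8 passed the filter on dim signals only through wild-type and knock-out paraquat arrays. When the 12 wild-type and knock-out arrays alone chose the set, 67 of 74 higher genes were positive in the transgenic and 33 of 38 lower genes negative, with medians of 0.18 and -0.22. Without knock-out paraquat replicate 2 the counts were 78 of 89 and 33 of 36, with medians of 0.15 and -0.21. A selection on extreme values enlarges the wild-type and knock-out side of these ratios to an unknown degree.

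**Figure D2:**
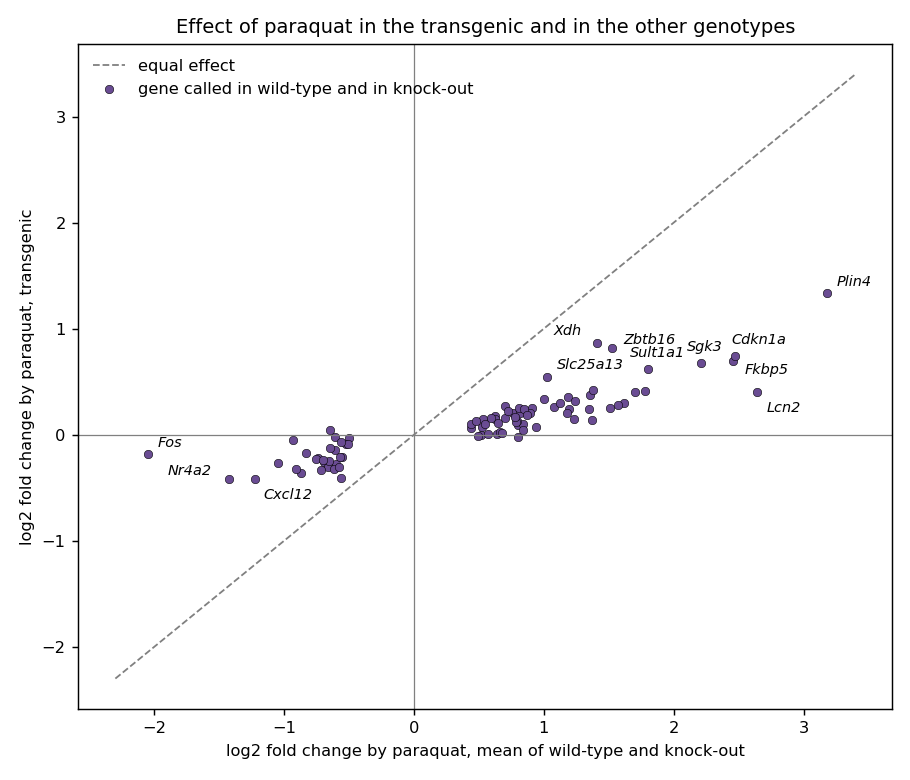
Log2 fold change by paraquat in the transgenic (vertical axis) against the mean of wild-type and knock-out (horizontal axis) for the 89 genes called in both of those genotypes, with the dashed line marking equal effects. Every point lies nearer to zero in the transgenic, and Plin4 at 1.34 is the highest.

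The 3 transgenic paraquat pools differed in this set. Relative to the transgenic saline mean, the median of the 60 genes was 0.43 on replicate 1, 0.29 on replicate 2 and -0.06 on replicate 3. The wild-type pools stood at 0.97, 1.00 and 0.97, and those of the knock-out at 0.93, 0.71 and 0.80. Of the 60 genes, 51 were above all 3 saline arrays on replicate 1, 37 on replicate 2 and 6 on replicate 3, where the shares over all genes were 22.6%, 13.7% and 13.6%. The 29 lower genes showed less of this division, with medians of -0.22, -0.28 and -0.11, and 17, 18 and 15 of them lay below all saline arrays, against 22.1%, 20.3% and 32.2% of all genes. On replicate 3, 6 of the 60 above and 14 of the 60 below the saline arrays were thus no more than the shares over all genes.

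**Figure D3:**
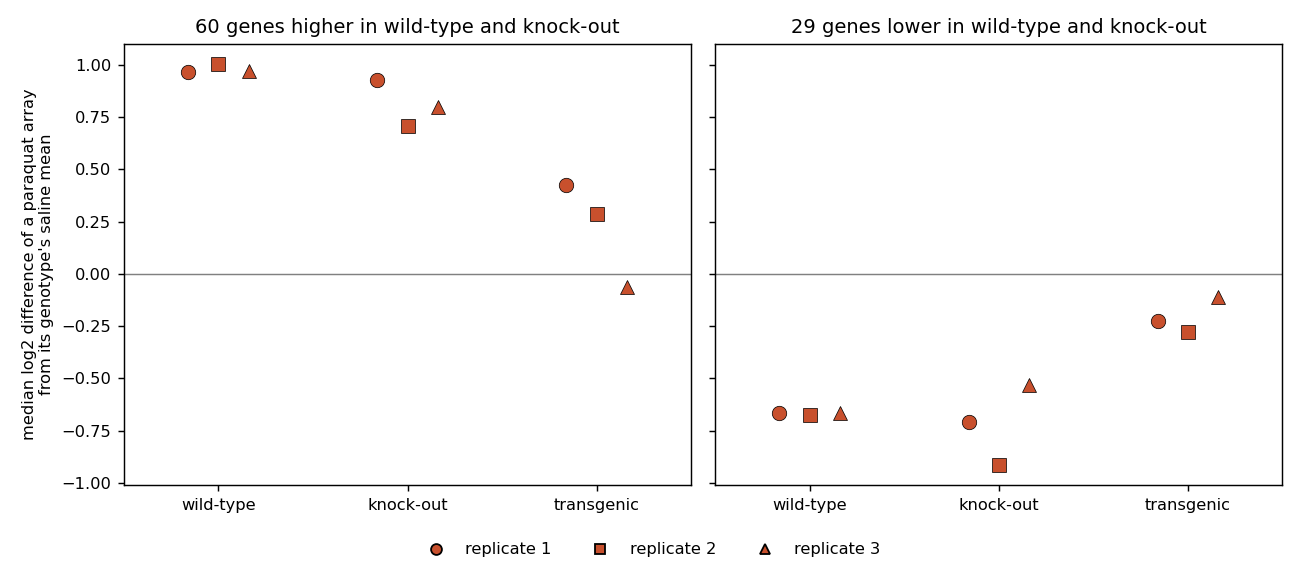
Median log2 difference of each paraquat array from the saline mean of its genotype (vertical axis) over the 60 genes higher (left) and the 29 genes lower (right) in both wild-type and knock-out, by genotype and replicate. Transgenic replicate 3 stands at -0.06 on the left, below replicates 1 and 2 at 0.43 and 0.29.

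The difference between the transgenic and the wild-type effect was tested directly. Limma called 15 of 8320 genes (0.18%), all with a smaller effect in the transgenic. With the replicate block within genotype it called 29, of which 25 had a lower and 4 a higher value in the transgenic. Against the knock-out it called 4 (0.0481%), and 20 with that block. With the block in the transgenic only, which leaves the other genotypes unpaired, the counts were 26 (23 lower, 3 higher) and 19. Of the 66 genes that paraquat raised in the knock-out, 13 were among the 15, and 61 of the 66 had positive values in the transgenic. These calls share the spread estimated over all arrays. The largest difference from wild-type was that of Lcn2, at -2.06 (SE 0.28, limma's adjusted p = 0.0028), and its difference from the knock-out was -2.43 (SE 0.28, limma's adjusted p = 0.00028). Sgk3 differed by -1.70 (SE 0.24, adjusted p = 0.0028) from wild-type and by -1.37 (SE 0.24, adjusted p = 0.037) from the knock-out. Lcn2 was at or above the filter level, 6.30 to 6.40, on the 6 wild-type and knock-out paraquat arrays alone, so it was tested only through the arrays on which it is high, and the stricter filter drops it. Against wild-type, Lcn2 was called in all 26 fits that held it and Sgk3 in all 27, the reported fit and its alternatives together, while against the knock-out Sgk3 was called in 16 of 26.

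Further genes with a smaller effect than in wild-type were Cdkn1a (-1.86, limma's adjusted p = 0.012) and Fkbp5 (-1.81, adjusted p = 0.026). Ada, adenosine deaminase, differed by -1.55 (adjusted p = 0.026), and Lrg1, a secreted acute-phase glycoprotein, by -1.34 (adjusted p = 0.021). Both were below the filter level on all saline and all transgenic arrays and passed through wild-type and knock-out paraquat arrays, as Lcn2 did. Nrros, which regulates latent TGF-β in microglia, differed by -1.29, and Pnpla2, the triglyceride lipase of lipid droplets, by -1.08, both at an adjusted p of 0.026. With the mean of all its probe sets the difference of Pnpla2 was -0.40 (adjusted p = 0.8). Polr3e, a subunit of RNA polymerase III, read 8.18, 8.16 and 7.80 under saline and 8.17, 8.11 and 8.30 under paraquat. Those 2 groups overlapped, with a log2 fold change of 0.15 (SE 0.13), while wild-type gave 1.36, and the difference was -1.21 (SE 0.18, limma's adjusted p = 0.0041). The single other probe set of Polr3e had the opposite sign in the transgenic. Cirbp, a cold-inducible RNA-binding protein, differed by -1.05 (adjusted p = 0.026), Smim3 by -0.99 (adjusted p = 0.026) and Mertk, a receptor for the uptake of dying cells, by -0.95 (adjusted p = 0.048). Over the fits run for each gene the call was made in 26 of 27 for Polr3e, 24 of 27 for Cdkn1a, 19 of 26 for Lrg1, 18 of 27 for Fkbp5 and 16 of 27 for Smim3. It was made in 14 of 26 for Ada and Nrros, 14 of 27 for Pnpla2 and Cirbp and 11 of 27 for Mertk. Plin4 differed by -1.82 (SE 0.59) and did not pass (limma's adjusted p = 0.51), and neither did Xdh at -0.70 (SE 0.39, adjusted p = 1).

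Members of the glucocorticoid response list, known targets of the receptor in several tissues, were mostly positive and mostly small. The list was chosen with earlier results of these data known, so its counts and medians are not an independent test. Of 44 tested, 37 were positive, 8 had an unadjusted p under 0.05, all higher, and 0 were called. The count of 8 was 3 without paraquat replicate 1 (median 0.06), 5 without paraquat replicate 2 and 22 without paraquat replicate 3 (median 0.34). Over all 6 arrays the median was 0.15, against -0.03 for all genes, where wild-type gave 0.83 with 32 called higher (1.53% of all genes) and the knock-out 0.68 with 24 called higher (0.793%) and 2 lower (1.47%). The mean of the list read 8.70, 8.79 and 8.62 on the saline arrays and 9.21, 9.04 and 8.55 on the paraquat arrays. Paraquat replicate 3 was the lowest of the 6, and the other 2 were the highest. Pairs 1, 2 and 3 had medians of 0.47, 0.14 and -0.09. The 8 were Sgk3, Cdkn1a, Plin4, Fkbp5, Sult1a1 at 0.62 (a phenol sulfotransferase), Zbtb16 at 0.82 (a transcriptional repressor), Mertk at 0.36 and Mt2 at 0.37 (a metallothionein). Classical targets with values near or below zero included Klf9 at 0.02, Per1 at -0.17 and Dusp1 at 0.03, and the receptor gene Nr3c1 stood at -0.06. Per1 (0.09 and -0.10) and Dusp1 (-0.46 and -0.79) were not raised in wild-type and knock-out either. Klf9 gave 0.40 and 0.15 there.

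The glucocorticoid receptor binds a short palindrome, and promoters that hold it are shown because 4 of the genes raised elsewhere share this sequence feature, which played no part in choosing them. The motif searched, written GNACA, then 3 bases of any kind, then TGTNC, is its own reverse complement, and it was looked for in the 250 bases before each transcript start in RefSeq promoters of build GRCm38.p6. It was found in 4 of the 64 promoters (6.25%) listed for the 60 genes higher in both other genotypes, with a promoter for 51 of them, in 24 of 8870 (0.271%) of the genes tested and in 127 of 32851 (0.387%) of the whole table. The half-site AGAACA on either strand, which overlaps the longer motif, was present in 17.2%, 10.9% and 16.1% of these. The half-site was present in 6 of 49 promoters (12.2%) of the glucocorticoid response list. In the choroid plexus list it was present in 7 of 16 (43.75%), which belong to 9 genes. The full motif was found in 4 of the 49 (8.16%), those of the same 4 genes, and in 0 of the 16. The promoters listed for Plin4, Fkbp5 and Cdkn1a held neither the motif nor the half-site. The matches begin at -188 from the start in Sgk1, -94 in Mt1, -181 in Map3k6 and -172 in Txnip. A match of letters is a description and does not show that the receptor binds there. The 4 windows of 100 bases are given 5′ to 3′ on the plus strand with the match in capitals, at chr10:21993658-21993757 for Sgk1, chr8:94178951-94179050 for Mt1, chr4:133240593-133240692 for Map3k6 and chr3:96557741-96557840 for Txnip.
Sgk1: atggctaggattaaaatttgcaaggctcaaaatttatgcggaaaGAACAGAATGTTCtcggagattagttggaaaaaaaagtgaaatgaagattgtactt
Mt1: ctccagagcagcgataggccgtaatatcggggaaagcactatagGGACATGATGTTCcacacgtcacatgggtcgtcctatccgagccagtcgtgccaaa
Map3k6: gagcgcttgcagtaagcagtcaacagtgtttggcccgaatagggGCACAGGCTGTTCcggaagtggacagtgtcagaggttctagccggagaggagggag
Txnip: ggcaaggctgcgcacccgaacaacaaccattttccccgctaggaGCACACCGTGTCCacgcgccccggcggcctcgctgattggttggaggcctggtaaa

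The 4 genes with such a match had positive but small values in the transgenic, none below an unadjusted p of 0.05. Sgk1, a kinase that regulates ion transport, read 10.56, 10.78 and 9.90 under saline and 11.04, 10.81 and 9.83 under paraquat. Its pools of replicate 3 were the lowest of either treatment, and the log2 fold change of 0.14 (SE 0.24) stood against 1.35 in wild-type. Mt1, a metallothionein that binds zinc and copper, read 12.93, 13.17 and 12.90 under saline and 13.32, 13.33 and 12.97 under paraquat. Replicates 1 and 2 of Mt1 were above the saline pools, and the log2 fold change was 0.21 (SE 0.12) against 0.80 in wild-type. Map3k6, a stress-activated kinase, had 0.28 against 1.37, with pairs of 0.90, 0.49 and -0.53. Map3k6 was below the filter level on all transgenic arrays and was tested only through wild-type and knock-out paraquat arrays. Txnip, an inhibitor of thioredoxin, read 8.50, 8.81 and 8.45 under saline and 9.14, 9.03 and 8.30 under paraquat, with 0.24 (SE 0.17) against 1.41.

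Genes that answer oxidants directly showed little. Of 27 NRF2 targets and glutathione genes, 0 had an unadjusted p under 0.05, against 1.42% of all genes. In this list 19 were negative, with a median of -0.04, where 38.4% of all genes were positive. Its median was 0.01 in wild-type and -0.08 in the knock-out, so the list moved little there as well. Hmox1, heme oxygenase, stood at 0.14, Gclc and Gclm of glutathione synthesis at 0.04 and 0.16 and Srxn1, sulfiredoxin, at -0.18. Among 26 antioxidant enzymes and metallothioneins Mt2 alone had p under 0.05, and Sod1, Sod2 and Gpx1 stood at 0.03, -0.03 and -0.12. The list on superoxide sources and paraquat redox cycling held 15 tested genes with a median of -0.04, and Xdh was its 1 member under 0.05. In p53 targets the median of 23 was 0.03, with Cdkn1a higher and Trp53inp2 lower at p under 0.05 and Mdm2 at -0.14. Of 8 inflammation genes that passed the filter, 6 were positive, and Nrros at 0.42 was under 0.05. Of 26 heat shock genes 20 were negative (median -0.07) and of 24 endoplasmic reticulum stress genes 21 were (median -0.07), with 0 members of either under 0.05. The medians of these lists were -0.10 and -0.13 in wild-type and -0.25 and -0.29 in the knock-out.

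Immediate early genes report recent neuronal activity, and 4 of the 23 tested were called lower under paraquat in wild-type (0.469% of all genes) and 3 in the knock-out (1.47%), Fos, Nr4a1 and Nr4a2 in both. Gadd45g was called higher in both, at 0.99 and 0.69. In the transgenic 0 were called. Fos read 9.57, 8.53 and 8.98 under saline and 8.62, 8.95 and 8.95 under paraquat. The groups overlapped, with the first pair at -0.95 and the second at 0.42. The log2 fold change was -0.19 (SE 0.26), against -1.89 in wild-type and -2.21 in the knock-out, and Fos differed from the knock-out by 2.02 (SE 0.36, limma's adjusted p = 0.041) and from wild-type by 1.70 (SE 0.36, adjusted p = 0.059; 0.025 with the replicate block). The difference from the knock-out was called in 12 of 26 fits. Its transgenic saline mean was -0.59 from that of wild-type saline (SE 0.26, adjusted p = 0.17). Nr4a1, an orphan nuclear receptor of the same class of genes, read 8.17, 8.05 and 8.46 under saline and 8.16, 8.12 and 8.26 under paraquat. Its paraquat pools lay inside the saline range, with a log2 fold change of -0.05 (SE 0.13) against -0.82 in wild-type. Nr4a2 had -0.42 (SE 0.30), with pairs of -1.13, 0.44 and -0.56. Over the 23 immediate early genes tested the median was -0.04 and 0 had an unadjusted p under 0.05. Of the 23, 14 were negative, where 5127 of all 8320 genes were negative. With array weights the transgenic values of Fos, Nr4a1 and Nr4a2 changed sign. That of Fos also did so without saline replicate 1 and without replicate 1 in both groups. That of Nr4a1 did so without saline replicate 3 and without replicate 3 in both groups.

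Choroid plexus genes gave the other large values of the transgenic, and 12, 9 and 12 of the 13 list members tested were higher on the paraquat array in pairs 1, 2 and 3. In their means 12 were positive, 7 had an unadjusted p under 0.05 and 0 were called. The count of 7 was 1 without paraquat replicate 1, 2 without saline replicate 3 and 4 without paraquat replicate 2. The median was 0.44, against -0.02 in wild-type and -0.16 in the knock-out. Folr1, the folate receptor of the choroid epithelium, read 6.08, 6.91 and 5.08 under saline and 7.86, 7.29 and 6.49 under paraquat. The groups overlapped, but each paraquat pool was above the saline pool of the same number, by 1.77, 0.38 and 1.41. Folr1 was at or above the filter level on 1 transgenic saline array and on all 3 transgenic paraquat arrays. The log2 fold change was 1.19 (SE 0.32, 95% interval 0.51 to 1.87), which is 2.28-fold, with limma's adjusted p = 1, and 0.041 with the replicate block. The difference of this effect from wild-type was 1.21 (SE 0.46, adjusted p = 0.74; 0.061 with the block) and from the knock-out 1.30 (adjusted p = 0.90; 0.046 with the block).

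Ttr, the thyroxine carrier transthyretin, read 13.60, 13.74 and 11.98 under saline and 14.18, 14.02 and 13.45 under paraquat. Saline replicate 3 was far below the others, and the log2 fold change of 0.78 (SE 0.29) came from pairs of 0.58, 0.29 and 1.47. Sostdc1, a secreted antagonist of BMP and Wnt signals, read 5.76, 5.91 and 5.16 under saline and 7.31, 6.67 and 5.55 under paraquat, with a log2 fold change of 0.90 (SE 0.30). Replicates 1 and 2 of Sostdc1 were above all saline pools and replicate 3 was not. Sostdc1 was at or above the filter level on 0 transgenic saline arrays and on 2 transgenic paraquat arrays. Without paraquat replicate 3, its lowest paraquat pool, Sostdc1 gave 1.38 (limma's adjusted p = 0.014). With other single transgenic arrays left out it fell as low as 0.50 and was not called. In limma's fit with the replicate block its effect differed from that of wild-type by 1.35 (adjusted p = 0.026, and 0.45 without the block). Kl, the ageing-related hormone klotho, had 0.83 (SE 0.34), Ecrg4, a secreted peptide precursor, 0.67 (SE 0.25), Kcne2, a potassium channel subunit, 0.58 (SE 0.24) and Calml4 0.44 (SE 0.19). Each of these 4 was higher in all 3 pairs. Car12, a carbonic anhydrase outside the list, had 0.62 (SE 0.20), with every transgenic array below the filter level. In the list Igf2 stood at -0.05, and Otx2, the transcription factor of the epithelium, at 0.17.

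The baseline of these genes was uneven between the pools. The mean of the 13 members read 6.84, 7.15 and 6.32 on the transgenic saline arrays and 7.62, 7.37 and 6.83 on the transgenic paraquat arrays, and 7.63 to 8.18 on all 12 wild-type and knock-out arrays. All 6 transgenic arrays were thus below every other array, and the paraquat arrays were the nearer ones. In transgenic against wild-type saline, Folr1 differed by -1.91 (limma's adjusted p = 0.0027), Sostdc1 by -2.10 (adjusted p = 0.00067) and Ttr by -1.35 (adjusted p = 0.0098). In pooled tissue fewer cells of a type and less RNA per cell cannot be told apart. The 18S control and the spike-ins also varied by replicate number in the transgenic, and the part of these or of tissue content in the choroid plexus values was not tested.

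**Figure D4:**
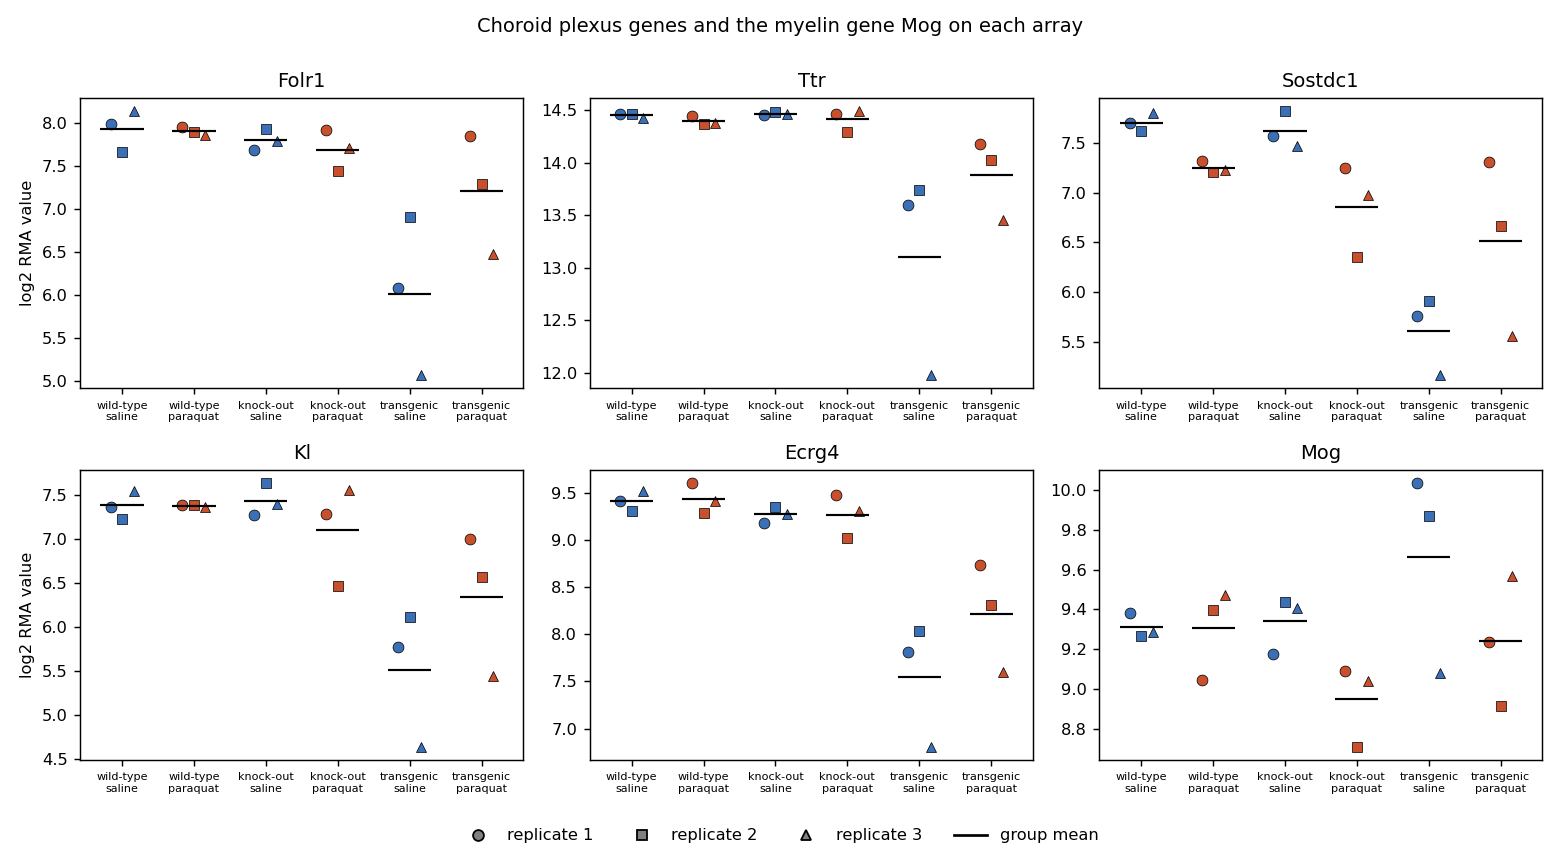
Log2 RMA values of 5 choroid plexus genes and the myelin gene Mog on each array (vertical axis), by genotype and treatment (horizontal axis, blue saline, red paraquat), with the group mean as a line. Wild-type arrays lie close together at about 14.45 for Ttr under saline, while transgenic saline arrays range from 11.98 to 13.74. The highest values of the arrays are 14.79 to 14.91, and whether signals near them are compressed was not tested.

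Myelin genes were lower in pairs 1 and 2 and higher in pair 3. All 18 tested members of the oligodendrocyte and myelin list were negative, 4 with an unadjusted p under 0.05 and 0 called, with a median of -0.22 against -0.03 for all genes. The mean of the list read 11.15, 11.13 and 10.81 under saline and 10.75, 10.63 and 11.09 under paraquat, and the pair medians were -0.41, -0.54 and 0.23. Mog, a glycoprotein of the outer myelin surface, read 10.03, 9.87 and 9.08 under saline and 9.24, 8.91 and 9.57 under paraquat. Its groups overlapped because pair 3 was reversed, and the log2 fold change was -0.42 (SE 0.20). Gal3st1, which makes sulfatide, stood at -0.36, Pllp, plasmolipin, at -0.33, and Fa2h, which hydroxylates myelin lipids, at -0.30. Mbp, at 14.33 to 14.46 on all 6 arrays, stood at -0.08. Its readings lie near the highest values of the transgenic arrays, 14.79 to 14.91, and whether signals there are compressed was not tested. Without replicate 3 in both transgenic groups Ugt8a, the galactosylceramide synthase, was lower by limma's test (-0.98, adjusted p = 0.04), from -0.31 over all pools. Wild-type gave a median of -0.05 for the list and the knock-out -0.35, with 2 and 4 members called lower, where 0.469% and 1.47% of all genes were. Without knock-out paraquat replicate 2, whose list mean of 10.12 was below the 10.49 and 10.39 of its group, the knock-out gave -0.21 with 2 called lower, and 4 were called lower in wild-type.

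**Figure D5:**
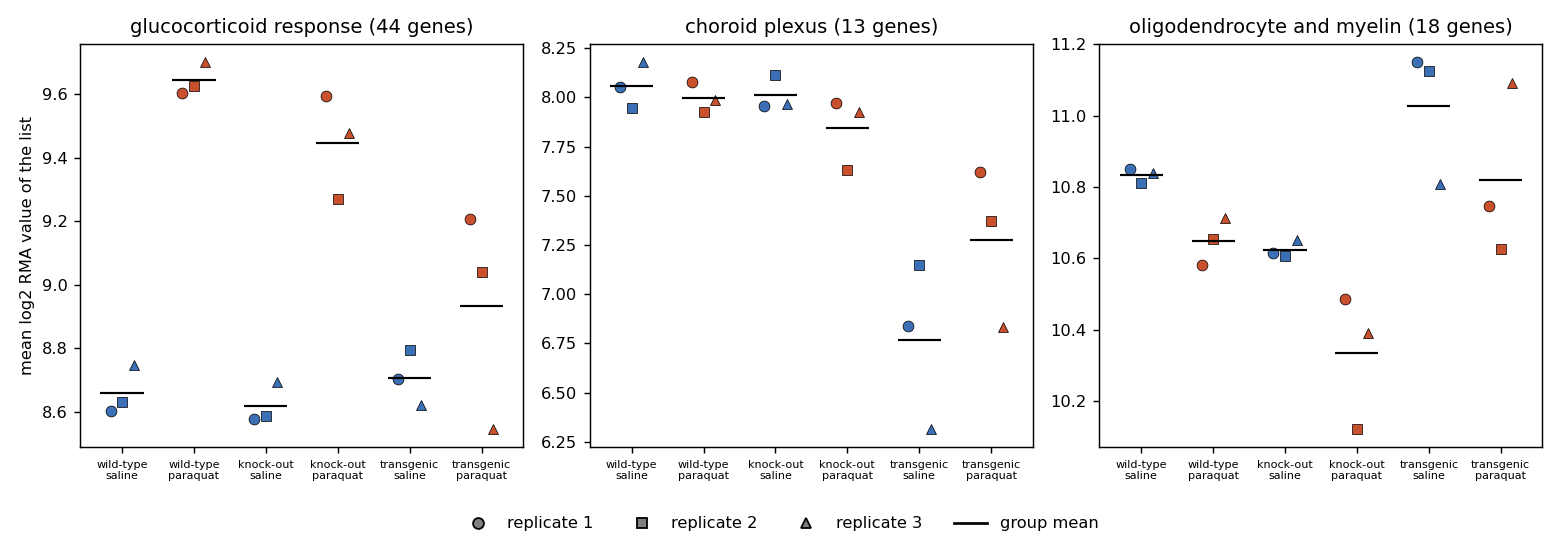
Mean log2 RMA value of the tested members of 3 gene lists on each array (vertical axis), by genotype and treatment (horizontal axis, blue saline, red paraquat), with the group mean as a line. In the transgenic the paraquat array of replicate 3 is the lowest of its group for glucocorticoid response, at 8.55, and choroid plexus, at 6.83, and the highest for myelin, at 11.09.

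Markers of the other cell types gave smaller values. Granule neuron markers had a median of -0.09 with 12 of 16 negative, where 5127 of all 8320 genes were negative. Purkinje neuron markers had a median of 0.01, astrocyte and Bergmann glia markers -0.02 and microglia markers -0.06. In these 4 lists 0 members had an unadjusted p under 0.05. Endothelial markers had a median of -0.13, where wild-type gave -0.23 and the knock-out -0.39. Cxcl12, a chemokine made by vessels, read 8.88, 9.13 and 8.80 under saline and 8.45, 8.32 and 8.78 under paraquat. All 3 paraquat pools of Cxcl12 were below all 3 saline pools, and the log2 fold change was -0.42 (SE 0.15, unadjusted p = 0.011), against -1.11 and -1.35 in wild-type and knock-out. The endothelial receptor Tek stood at -0.37 and thrombomodulin, Thbd, at -0.32, both with p above 0.05. Higd1b, a marker of pericytes, read 6.43, 6.27 and 6.11 under saline and 5.95, 5.90 and 5.74 under paraquat. These groups did not overlap, and the log2 fold change was -0.41 (SE 0.12, unadjusted p = 0.0029 in limma's fit). This was the smallest p among lower genes, while wild-type gave 0.18 and the knock-out 0.31, neither past the threshold. Higd1b was dim, at or above the filter level on 1 transgenic saline array and on 0 transgenic paraquat arrays. The other 10 members of the pericyte and smooth muscle list had p above 0.05, with Rgs5 and Kcnj8 at -0.03, and the list median was -0.03.

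Further genes with small p-values had lower values under paraquat, and none passed limma's test. Adcy8, a calcium-stimulated adenylyl cyclase, read 8.05, 7.83 and 7.97 under saline and 7.61, 7.55 and 7.46 under paraquat. Its 2 groups were separate, with a log2 fold change of -0.41 (SE 0.13, unadjusted p = 0.0046), near the -0.56 of both other genotypes. Slc38a5, a glutamine transporter, had -0.49 with pairs of -0.37, -1.05 and -0.03, Fgfrl1, an FGF receptor without a kinase, -0.31, and Ctsh, the lysosomal protease cathepsin H, -0.35. Trp53inp2, an autophagy factor, read 11.22, 11.44 and 11.36 under saline and 10.93, 11.01 and 10.95 under paraquat. Its groups were also separate, with -0.38 (SE 0.14, unadjusted p = 0.015). The glutamate transporter Slc1a1, the palmitoyl transferase Zdhhc5, the calcium channel subunit Cacna1a, Coq10a and Dnase1l2 stood between -0.32 and -0.27. Of 27 cholesterol synthesis genes 22 were negative with a median of -0.10, where 5127 of all 8320 genes were negative. Dhcr7 at -0.31 and Mvd at -0.26, which act at the last step and in the mevalonate steps, had an unadjusted p under 0.05.

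Higher values outside these groups were found for Krt6a and Krt18, keratins of epithelia, at 0.40 (SE 0.10) and 0.48 (SE 0.13). Krt6a read 6.13, 6.42 and 6.44 under saline and 6.70, 6.73 and 6.77 under paraquat. Its groups were separate with an unadjusted p of 0.00072 and an adjusted p of 1 in limma's fit, and 1 of its 2 other probe sets had the opposite sign. Between transgenic and wild-type saline Krt18 differed by -0.89 (limma's adjusted p = 0.00096). Gm15510 stood at 0.38 (SE 0.10), with paraquat pools at 6.57 to 6.72 and saline pools at 6.16 to 6.37, and Kcnk10, a background potassium channel, at 0.40 (SE 0.13). Eif4ebp1, which restrains the start of translation, stood at 0.31 (SE 0.13) with pairs of 0.36, 0.31 and 0.25. Krt18 and Eif4ebp1 were below the filter level on all transgenic arrays. Both were tested only through wild-type and knock-out paraquat arrays.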

How the data were processed

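RNA of pooled cerebellum was read on 18 single-colour Affymetrix 3' expression arrays, 3 for each of 6 groups of genotype and treatment. Groups came from the sample titles and labels, and titles that do not name paraquat were taken as saline. The deposited table holds log2 values, 1 per probe set and array. The authors made them with RMA, per the submitters' processing notes, which give no version. RMA includes quantile normalisation, which forces one distribution on all arrays, so a shift common to most genes would not be seen. Which arrays were normalised together is not given in the sources used here, and scanner files were not used, so that scan batches were not examined. The log2 scale follows from the values, 3.13 to 14.91, with array medians of 6.98 to 7.15 and no centring per gene.

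Of 22690 probe sets, 64 were controls, read as technical measures only. The platform annotation, which can be old, gave 1 symbol for 20380, several for 691 and none for 1555, and only the first were used. They stand for 12393 genes, each represented by the probe set with the highest mean. To drop dim genes, 3 or more arrays had to be at or above their 40th percentile, and 8320 genes remained. limma 3.58.1 under R 4.3.3 fitted 6 group means with lmFit and eBayes, leaving 12 residual degrees of freedom. A permutation test of 3 against 3 arrays cannot go below 0.1. The fit was tested on simulated data.

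Same-numbered transgenic arrays correlated in their deviations from the group mean at 0.16, 0.13 and 0.42, all above the 0.1 set as the limit, so the numbers were taken as pairs there. Saline 1 and paraquat 2 correlated as well, at 0.16, and saline 2 and paraquat 1 at 0.14. For replicates 1 and 2 the number thus did not set same-numbered arrays apart from crossed ones, and the pairing is marginal. In wild-type the values were 0.09, 0.15 and 0.34 and in the knock-out -0.09, -0.28 and -0.12, so those were not taken as pairs. Wild-type missed the limit only by its value of 0.09.

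Named genes are Apod, the 12 smallest p-values each way, the 16 higher and 8 lower shared genes with the largest mean, up to 4 members of each of 36 lists with an unadjusted p under 0.05, and up to 12 each way in a difference of effects. Further list members, among them defining markers and classical targets, genes whose promoter is shown, and Ugt8a, Cap1 and Hspa1b were named after their values were seen. The members and the lists were chosen with earlier results of these data known. A count of named genes whose other probe sets did not all share the sign gave 4 of 24. Alternatives were the filter, the normalisation, the variance model, array weights, the replicate block, the arrays in the fit, the probe set per gene and each array left out.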

Additional observations from a re-analysis of the deposited data

Results flagged for a closer look

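The following genes are listed because the paraquat effect of the transgenic differed from that of another genotype in limma's test of the difference. Against wild-type, the transgenic effect was smaller for all 15 genes called. The log2 difference was -2.06 for Lcn2, -1.86 for Cdkn1a, -1.81 for Fkbp5, -1.70 for Sgk3, -1.55 for Ada, -1.34 for Lrg1 and -1.29 for Nrros. It was -1.21 for Polr3e, -1.08 for Pnpla2, -1.05 for Cirbp, -0.99 for Smim3 and -0.95 for Mertk. The last 3, which fall outside the naming rule, were Gadd45g at -0.94, Spns2 at -0.77 and Mrnip at -0.73, called in 26 of 27, 14 of 27 and 9 of 26 fits. Lcn2, Ada and Lrg1 passed the filter on dim signals only through wild-type and knock-out paraquat arrays. Gadd45g, a stress and growth arrest gene, read 8.47, 8.47 and 8.26 under transgenic saline and 8.48, 8.48 and 8.39 under paraquat, against 9.53 to 9.65 in wild-type under paraquat.

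Against the knock-out, the differences called were -2.43 for Lcn2, -1.37 for Sgk3, -1.21 for Apod and 2.02 for Fos. The Apod difference rests on the knock-out, where the signal of the probe set was higher under paraquat, at 9.16 to 9.83 against 8.22 to 8.50. Fos, lower under paraquat in the knock-out, was near its saline level in the transgenic.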

How the results depend on the processing

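The count of genes called in the transgenic contrast was 0 under no filter, a stricter filter, quantile normalisation, an intensity trend, robust eBayes, the mean of all probe sets, probe sets tested singly, the replicate block over all genotypes, the transgenic arrays alone and leaving out knock-out paraquat replicate 2. It was 1 with the replicate block within genotype and with the block in the transgenic only, 12 with the transgenic arrays alone and the block, 4 without replicate 3 in both transgenic groups and 409 with array weights, which gave the second transgenic paraquat array a weight of 4.62 and the other 2 of its group 0.26 and 0.32. Leaving out single transgenic arrays gave 0 to 6, the 6 without paraquat replicate 3.

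Against wild-type the 15 calls became 9 with the stricter filter, 687 with array weights, 34 once knock-out paraquat replicate 2 was left out, 29 with the replicate block within genotype, 26 with the block in the transgenic only and 7 with the block over all genotypes. Higher values in the transgenic made up 153 of the 687, 4 of the 34, 4 of the 29 and 3 of the 26. Leaving out single transgenic or wild-type arrays gave 4 to 22, fewest without wild-type saline replicate 2 and most without transgenic paraquat replicate 1. Against the knock-out the 4 calls became 2 without filter, 7 with the stricter filter, 1 with quantile normalisation, 8 with an intensity trend, 839 with array weights, 20 with the replicate block within genotype, 19 with the block in the transgenic only and 8 with the mean of all probe sets. Leaving out single arrays gave 1 to 12. The cause was not tested.

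The glucocorticoid median of 0.15 ranged from 0.06 to 0.34 when single arrays were left out, and was 0.03 without replicate 1 in both groups. The median of the 60 shared higher genes ranged from 0.08 to 0.39 and that of the 29 lower from -0.25 to -0.16, and the latter was -0.14 without replicate 1 in both groups. The choroid plexus median of 0.44 ranged from 0.26 to 0.67, alternatives added after its values were seen.

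Of 1258 values of the 61 named genes in 21 settings, 1200 kept direction and side of the threshold, 42 passed it and 16 changed sign. No named gene was called in the reported fit, so none could lose a call. The 1200 are thus values that stayed uncalled with the same sign. With array weights Fos gave 0.27, Nr4a2 0.27 and Nr4a1 0.025. Without replicate 1 in both groups Map3k6 gave -0.022, Sgk1 -0.027, Fos 0.20 and Cirbp -0.036, and without replicate 3 in both Nr4a1 gave 0.030 and Polr3e -0.027. Leaving out single arrays, Fos ranged from -0.43 to 0.087, Nr4a1 from -0.13 to 0.068, Cirbp from -0.046 to 0.22, Sgk1 from -0.11 to 0.51, Cebpd from -0.038 to 0.74 and Apod from -0.083 to 0.013.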

Other observations

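Housekeeping lists stayed close to the median of all genes in the transgenic. The cytosolic ribosome list had 25 of 34 members positive with a median of 0.02, the proteasome 17 of 31 with 0.00 and oxidative phosphorylation 23 of 58 with -0.01, and 0 of these members had an unadjusted p under 0.05. In the ribosome list the pairs had medians of 0.11, 0.09 and -0.13, so the third pair again ran opposite to the other 2. Interferon response genes had 9 of 11 positive with a median of 0.05 and 0 members under 0.05. Hspa1b, an inducible heat shock gene, read 9.21, 8.68 and 8.07 under saline and 8.04, 9.07 and 7.54 under paraquat.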
